A study of Mus musculus with 6 samples.

Results

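The 11 probes examined here report the tenascins (Tnc and Tnxb), 4 laminin chains (Lama2, Lama5, Lamb1 and Lamc1), fibronectin (Fn1, with 2 probes) and the thrombospondins (Thbs1, Thbs2 and Thbs3). They were all the probes of an array of 223 whose platform annotation gives one of these 10 gene symbols. RNA came from the soleus, a calf muscle of mostly slow fibres that supports posture, of tenascin-C deficient mice on the 129/SV background after 1 day of renewed weight bearing, called reloading. The labels put all 6 animals, with 1 array each, in 1 group in which every animal carries the deficiency. The sources used here do not say how the deficiency was made, nor how old the animals were. With wild-type and unloaded animals not analysed here, the data allow no comparison between groups. Arrays are numbered in the order of the sample records.

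These proteins are large glycoproteins of the extracellular matrix. Laminins are trimers of an alpha, a beta and a gamma chain and form the sheet of the basement membrane around each muscle fibre, where integrins and dystroglycan bind them. Fibronectin builds fibrils between cells and is a ligand of integrins, while tenascins and thrombospondins modulate the attachment of cells to such a matrix. Tenascin-C is scarce in resting adult muscle and is known for its induction when muscle is loaded or injured.

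Each signal was read as a fold over the lowest intensity of its array, taken over 221 probes without the very bright 1M (unnamed) and 1O (28S ribosomal RNA). The lowest intensity is a floor that still holds background, so a fold near 1 means that the probe was not distinguished from the dimmest spot, and folds of different probes were not ranked as transcript levels. The deposited intensities are relative values, and without 1M and 1O those of each array sum to between 0.995 and 0.999. The lowest was 0.003 on arrays 1 and 2, and 0.0018, 0.0009, 0.0012 and 0.0006 on arrays 3, 4, 5 and 6. All values but 1, which belongs to no member, carry 4 decimals, so 1 unit in the last place was 3.33% of the lowest on arrays 1 and 2 and 16.7% of it on array 6. Arrays 1 and 2 stood apart from the others through probes 1M, which gave 36.6 and 35.7 there and 0.570 to 3.05 elsewhere, and 1O, which gave 4.68 and 4.84 there and 0.163 to 0.306 elsewhere. Mean log2 folds are therefore given over 6 arrays and over arrays 3 to 6. All 9 probes for muscle fibre markers were at 2 times the lowest or more throughout arrays 3 to 6. On arrays 1 and 2, 2 and 3 of them did. Of 5 fibroblast markers only Pdgfra has a probe, at 1.33 to 2.11 times the lowest over the 6 arrays, so the main matrix-producing cells could hardly be checked. In RNA of whole muscle, fewer cells of a type and less RNA per cell cannot be told apart.

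On every array most of the 11 matrix glycoprotein probes lay below 2 times the lowest intensity, as did most of all 221 probes. On each of arrays 3 to 6, 0 of the 11 were at 2 times the lowest intensity or more, where 13.6% of all 221 probes were, and on all 6 arrays 0 of 11 were, against 2.26% of all probes. On none of arrays 3 to 6 were 7 of the 11 at that level, against 48% of all probes. On arrays 1 and 2, 3 of 11 reached it, against 8.6% and 9.05% of all probes, and these were Tnc, Lamb1 and Lama5 on both arrays. The count was 0 of 11 on array 3 (16.7% of all probes), 4 on array 4 (29%), 2 on array 5 (34.8%) and 4 on array 6 (47.1%). On array 5 the 2 were Tnxb and Lamc1, and on arrays 4 and 6 the 4 were Tnc, Tnxb, Lamc1 and Fn1 at probe 9D. The 2 values on array 5 and that of Tnc on array 6 could lie below this level once the rounding of the deposited values is allowed for. Over all 6 arrays the median of the members' mean log2 fold was 0.72, beside 0.53 for all 221 probes. With arrays 3 to 6 alone the order of these medians was the other way round, at 0.53 for the members and 0.63 for all probes.

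**Figure D1:**
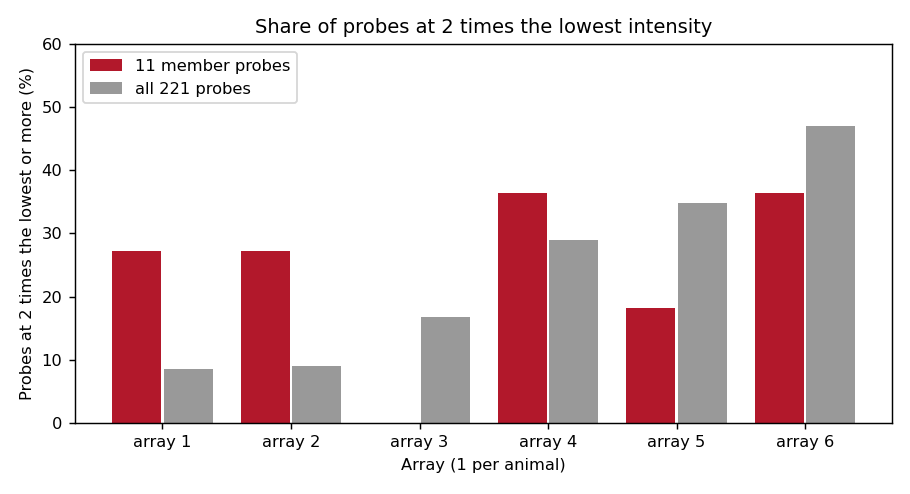
Share of the 11 member probes (red) and of all 221 probes (grey) at 2 times the lowest intensity or more, in percent, for each of 6 arrays. The members' bar is above that of all probes on arrays 1, 2 and 4 and below it on arrays 3, 5 and 6.

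**Figure D2:**
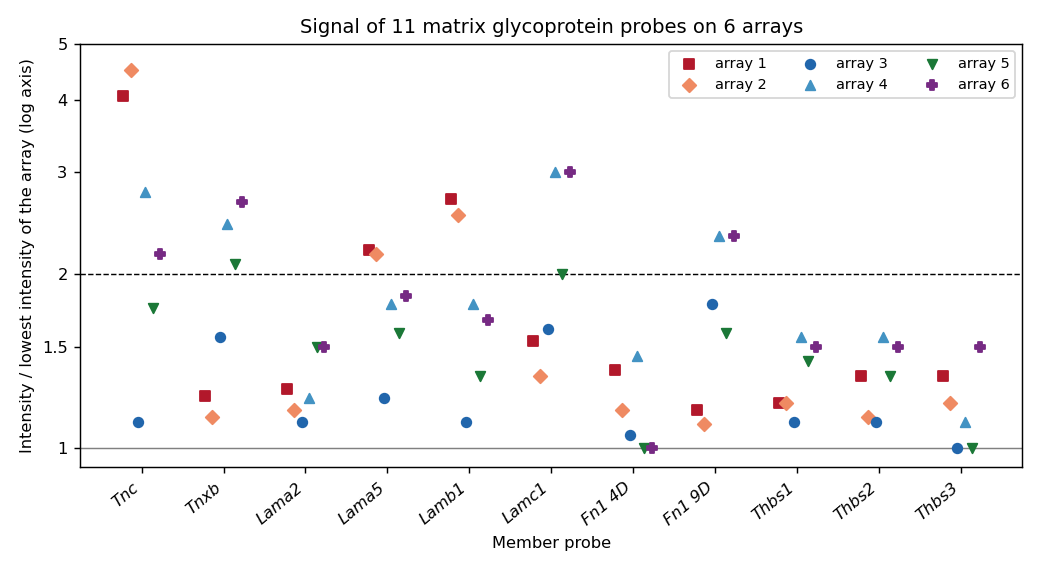
Intensity divided by the lowest intensity of its array, on a log axis, for each member probe and array; the dashed line marks 2 times the lowest and the solid line the lowest itself. Tnc, Lamb1 and Lama5 are highest on arrays 1 and 2, whereas Tnxb, Lamc1 and Fn1 at probe 9D are highest on arrays 4 and 6.

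Tnc, the gene in which the animals are deficient, was examined first. Its probe, 4L, had an intensity of 0.0122 on array 1 and of 0.0135 on array 2, compared with 0.002, 0.0025, 0.0021 and 0.0013 on the later arrays. As folds over the lowest these were 4.07 and 4.50, then 1.11, 2.78, 1.75 and 2.17. Arrays 1 and 2 were above all others in both readings, and array 3 was the lowest in fold. The mean log2 fold was 1.29 ± 0.76 (SD, n = 6), and 0.89 ± 0.56 (SD, n = 4) on arrays 3 to 6. The sources used here do not say whether the deficient allele still holds the probed sequence, so these values are no check of the genotype.

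The place of the Tnc probe on the membrane was taken from its identifier, on the assumption that numbers stand for rows and letters for columns. It lies 3.16 grid steps from 1M, nearer than any other member. Lamb1 follows at 4.24 steps and Lama5 at 5.0, and the other 8 members lie between 8.54 and 12 steps away. This order of the first members is the same if rows and columns that hold no probe are skipped, with 2.24, 2.83 and 3.61 steps. The 3 nearest members were the 3 that reached 2 times the lowest on arrays 1 and 2. Of all probes within 5 steps of 1M, 11 of 11 reached 2 times the lowest on both arrays, with median folds of 4.07 and 4.50. Of the 210 probes farther away, 8 and 9 did, and their median fold was 1.20 on both. On arrays 3, 4, 5 and 6, where 1M gave 0.570, 3.05, 1.02 and 0.872, the near probes at 2 times the lowest numbered 1, 8, 3 and 8 of 11, at median folds of 1.22, 2.67, 1.67 and 2.17. Of the 210 farther probes 36, 56, 74 and 96 reached it there, at medians of 1.22, 1.44, 1.54 and 1.83. In deposited intensity 1M was dimmer on array 6 than on array 5, which had fewer such near probes. As folds over the lowest, 1M gave 317, 3385, 852 and 1453.5 on arrays 3, 4, 5 and 6. This is the order of the near median folds, though the folds of 1M and of the near probes share a divisor. The part of the bright spot in the signals of Tnc, Lamb1 and Lama5 was not tested.

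**Figure D3:**
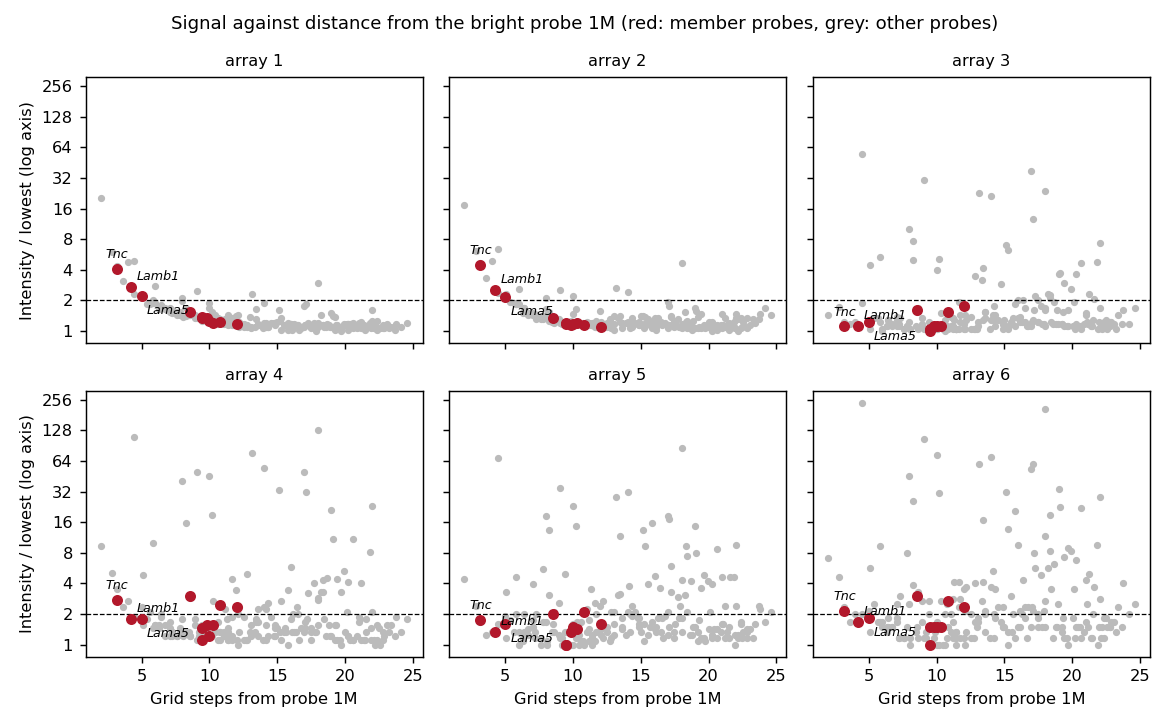
Intensity over the lowest of the array (log axis) against the distance from probe 1M in grid steps, 1 panel per array; members are red, with Tnc, Lamb1 and Lama5 named, and other probes grey. On arrays 1 and 2 all 11 probes within 5 steps lie at or above the dashed line at 2 times the lowest, while on array 3 only 1 of them does.

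Row 4 of the grid holds 4 members and shows the fall along a single line. On array 1 the fold went from 4.07 at Tnc to 2.70 at Lamb1, 2.20 at Lama5 and 1.37 at Fn1 probe 4D, at 3.16, 4.24, 5.0 and 9.49 steps from 1M. On array 2 the same probes gave 4.50, 2.53, 2.17 and 1.17. On array 3 they gave 1.11, 1.11, 1.22 and 1.06, with no such order. Array 4 gave 2.78, 1.78, 1.78 and 1.44, array 5 gave 1.75, 1.33, 1.58 and 1.0, and array 6 gave 2.17, 1.67, 1.83 and 1.0. On these 3 arrays too Tnc was the highest of the 4 and Fn1 4D the lowest, but Lama5 was level with Lamb1 or above it. Itgb1, a beta integrin subunit whose probe lies next to Lama5 in the row, had folds of 2.03 and 1.83 on arrays 1 and 2 and of 4.67 to 10.1 on arrays 3 to 6, so the row held a probe well above the floor on the latter. Dgat1, an enzyme of triglyceride synthesis in row 4 on the other side of 1M, lies at the same distance as Tnc. It gave folds of 4.4, 4.70, 1.22, 3.56, 1.67 and 2.33 on arrays 1 to 6, at most 1.28 times those of Tnc on each array.

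**Figure D4:**
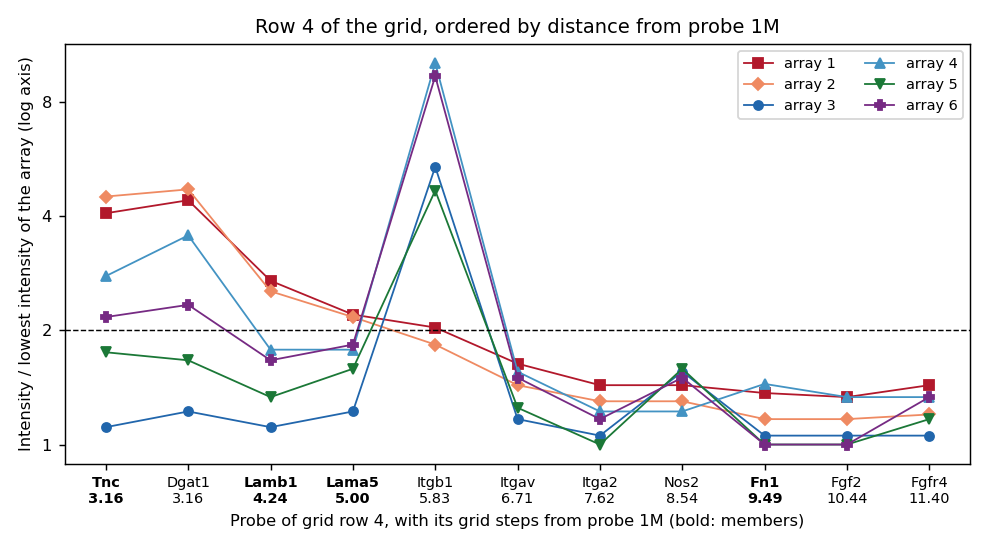
Intensity over the lowest of the array (log axis) for the probes of grid row 4, ordered by their grid steps from probe 1M, which are printed under each name; 1 line per array, members in bold. Signals of arrays 1 and 2 fall from Dgat1 to Itga2 and change little farther from 1M, and Itgb1 rises above its row on arrays 3 to 6.

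Among the 203 other named probes, those whose pattern over the 6 arrays was most like that of Tnc were Dgat1, Fgfr3, a growth factor receptor, and Top1, a topoisomerase. Likeness was the root mean square difference of log2 folds after each probe's mean was subtracted, and it was 0.126, 0.185 and 0.205 for these 3, against a median of 0.81 over all named probes. Their probes lie 2.0, 2.24 and 1.41 steps from that of Tnc and 3.16, 3.61 and 4.0 steps from 1M. Set against the 5 probes within 2 steps of it, Tnc lay at 0.924 and 0.957 times their median on arrays 1 and 2. On arrays 3 to 6 this ratio was 0.909, 1.04, 1.31 and 1.08. The Tnc signal was thus within 1.1 times the median of these 5 probes on 5 of the 6 arrays and higher on array 5. The 5 probes themselves differed, with folds of 2.17 to 20.3 on array 1 and of 1.06 to 1.44 on array 3.

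Tnxb encodes tenascin-X, a relative of tenascin-C that binds collagen fibrils and is known for its part in the firmness of connective tissue. Its probe lies 10.8 steps from 1M. The intensities were 0.0037 and 0.0034 on arrays 1 and 2 and 0.0028, 0.0022, 0.0025 and 0.0016 on arrays 3 to 6. The folds were 1.23 and 1.13, then 1.56, 2.44, 2.08 and 2.67. Arrays 1 and 2 were thus lowest in fold but highest in intensity, where for Tnc they were highest in both. The mean log2 fold was 0.81 ± 0.52 (SD, n = 6), and 1.10 ± 0.34 (SD, n = 4) on arrays 3 to 6. On those 4 arrays Tnxb lay at 1.40, 2.0, 1.47 and 1.78 times the median of the 11 probes around it, and at 1.0 times it on arrays 1 and 2. The probes most like it in pattern were those of Jund, a transcription factor of the AP-1 family (0.0914), Vegfb, a vascular growth factor (0.114), and Igfbp4, which binds insulin-like growth factors (0.129), against a median difference of 0.449 over 203 probes.

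Of the 4 laminin chains, Lamc1, the gamma chain shared by most laminins, was the only one to reach 2 times the lowest on any of arrays 3 to 6. Intensities were 0.0046, 0.004, 0.0029, 0.0027, 0.0024 and 0.0018 on arrays 1 to 6, and folds 1.53, 1.33, 1.61, 3.0, 2.0 and 3.0. In fold, arrays 4 and 6 were highest and array 2 lowest, whereas intensity was highest on array 1. The mean log2 fold was 0.98 ± 0.50 (SD, n = 6), and 1.21 ± 0.45 (SD, n = 4) on arrays 3 to 6. Lamc1 lay above all 8 probes within 2 steps on arrays 3, 4 and 6, at 1.49, 2.45 and 2.0 times their median. On array 5 it lay at 1.55 times that median, with 2 neighbours above it. On arrays 1 and 2 the ratio was 1.08 on both. The patterns most like it were those of Timp3 (0.059) and Timp2 (0.107), inhibitors of matrix metalloproteinases, and of Vegfb (0.067), against a median of 0.443.

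Lamb1, a laminin beta chain, behaved otherwise. Its folds were 2.70 and 2.53 on arrays 1 and 2 and 1.11, 1.78, 1.33 and 1.67 on arrays 3 to 6. The mean log2 fold was 0.82 ± 0.50 (SD, n = 6), and 0.53 ± 0.31 (SD, n = 4) on arrays 3 to 6. Against the 8 probes around it, Lamb1 lay at 1.21 and 1.14 times the median on arrays 1 and 2 and at 0.8 to 0.889 times it on the others.

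Lama5, an alpha chain of basement membranes of vessels and epithelia, had folds of 2.20 and 2.17 on arrays 1 and 2 and of 1.22 to 1.83 on arrays 3 to 6. Its mean log2 fold was 0.82 ± 0.32 (SD, n = 6), and 0.66 ± 0.27 (SD, n = 4) on arrays 3 to 6. It stayed between 0.914 and 1.14 times the median of the 10 probes around it on all 6 arrays. Lama2, the alpha chain of the main laminin of the muscle fibre basement membrane, whose loss causes a congenital muscular dystrophy, reached 2 times the lowest on no array. Its folds ran from 1.11 to 1.5, with a mean log2 fold of 0.36 ± 0.18 (SD, n = 6), or 0.40 ± 0.22 (SD, n = 4) on arrays 3 to 6. It lay at 0.750 to 1.0 times the median of its 11 neighbours. On no array did the signal of this chain exceed the middle of the surrounding spots.

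The array holds 4 more laminin chain probes, which were looked up after the values of the members had been seen. None of them was at 2 times the lowest throughout arrays 3 to 6, against 13.6% of all probes. On some of these arrays 3 of the 4 were, always on arrays 5 and 6 and never on arrays 3 and 4. Of all 221 probes, 85 were at that level on some of these arrays. Arrays 5 and 6 also had the larger shares of all probes there, 34.8% and 47.1%, against 16.7% and 29% on arrays 3 and 4. Lama4, an alpha chain of vessel walls, gave folds of 1.17, 1.56, 2.58 and 2.67 on arrays 3 to 6, and Lamb2, a beta chain enriched at the neuromuscular junction, 1.44, 1.89, 2.0 and 2.83. Lama3, an alpha chain of epithelia, gave 1.06, 1.22, 4.92 and 2.67, the highest fold of any laminin probe on these arrays. Lamb3, a beta chain of epithelia, stayed at 1.08 to 1.33. Of the 5 endothelial marker probes, Cdh5 and Pecam1 also reached 2 times the lowest on arrays 5 and 6 alone, Kdr did on array 5 alone (2.0) and Flt1 and Tek on none. Cdh5, the cadherin of endothelial junctions, gave 3.75 and 5.33 there, and Pecam1, an adhesion molecule of endothelium, 4.58 and 4.33. The summed fold of the 5 endothelial marker probes was 13.4 on array 5 and 14.7 on array 6, while the other arrays gave between 6.61 and 8.11. Most of that rise lay in Cdh5 and Pecam1. Flt1, Kdr and Tek, receptors of vascular growth factors, together gave 5.08 and 5.0 on arrays 5 and 6. On arrays 1 to 4 these 3 gave 4.7, 4.33, 3.67 and 4.67. Higher folds on arrays 5 and 6 were not limited to endothelial markers. Fabp4, the 1 adipocyte marker with a probe, gave 2.11, 4.33, 7.42 and 8.33 on arrays 3 to 6. The part of these rises in the laminin signals was not tested. Lamc1, by contrast, was as high on array 4 as on array 6.

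Fibronectin was measured by 2 probes that the annotation assigns to the same sequence record. Probe 4D gave 0.0041, 0.0035, 0.0019, 0.0013, 0.0012 and 0.0006 on arrays 1 to 6, and probe 9D gave 0.0035, 0.0033, 0.0032, 0.0021, 0.0019 and 0.0014. Probe 4D was the dimmest of all probes, or level with it, on arrays 5 and 6. The ratio of 9D to 4D was 0.854 and 0.943 on arrays 1 and 2 and 1.68, 1.62, 1.58 and 2.33 on arrays 3 to 6. On arrays 3, 5 and 6 probe 4D was at or near the floor, at 1.06, 1.0 and 1.0 times the lowest. The ratio there is close to the fold of 9D over the floor and is no measure of how far the probes differ in transcript signal. On array 4 probe 4D was at 1.44 and 9D at 2.33 times the lowest. As folds over the lowest, 4D stayed between 1.0 and 1.44 and 9D between 1.10 and 2.33. The mean log2 fold was 0.21 ± 0.23 for 4D and 0.72 ± 0.47 for 9D (SD, n = 6), or 0.15 ± 0.25 and 0.98 ± 0.28 (SD, n = 4) on arrays 3 to 6. Against its neighbours, 4D lay at 0.857 to 1.08 times the median of 11 probes and 9D at 0.943 to 1.56 times that of 12. The 2 probes lie 5.0 steps apart, at 9.49 and 12 steps from 1M.

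**Figure D5:**
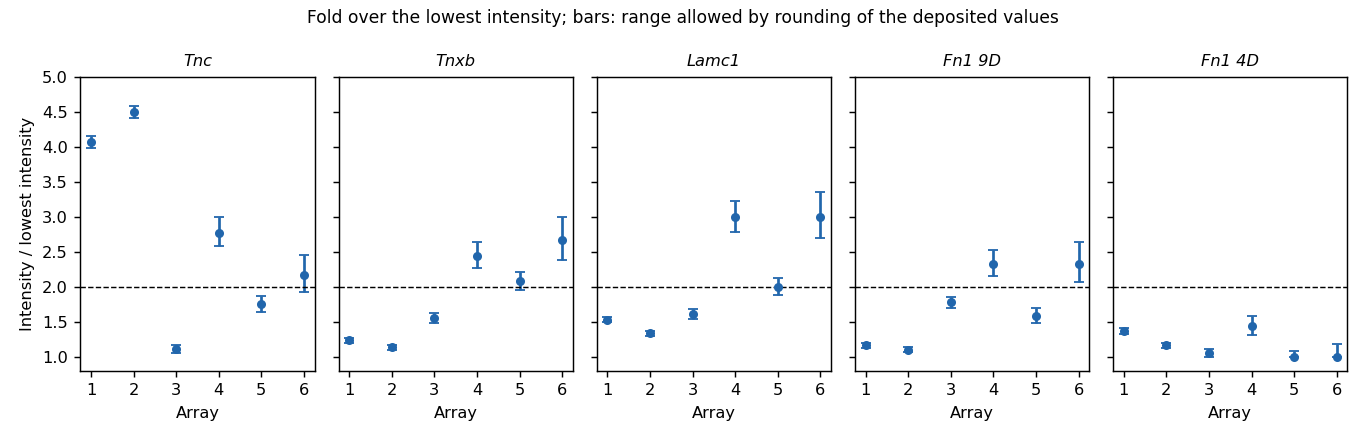
Fold over the lowest intensity by array for Tnc, Tnxb, Lamc1 and both Fn1 probes; bars span the folds that rounding of the deposited values to 4 decimals allows, and the dashed line marks 2 times the lowest. The bars of Tnc on array 6, Tnxb on array 5 and Lamc1 on array 5 cross the line.

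The thrombospondins lay close to the floor on all arrays. Thbs1, an activator of transforming growth factor beta and an inhibitor of vessel growth, had folds of 1.11 to 1.56 and a mean log2 fold of 0.40 ± 0.20 (SD, n = 6), or 0.47 ± 0.22 (SD, n = 4) on arrays 3 to 6. Thbs2, a relative that also restrains vessel growth, had folds of 1.11 to 1.56 as well, with a mean of 0.40 ± 0.20 (SD, n = 6), or 0.45 ± 0.22 (SD, n = 4) on arrays 3 to 6. Thbs3, from the other branch of the family, ran from 1.0 to 1.5, with a mean of 0.24 ± 0.23 (SD, n = 6), or 0.18 ± 0.28 (SD, n = 4) on arrays 3 to 6. It was level with the lowest intensity on arrays 3 and 5. None of the 3 reached 2 times the lowest on any array, which held for 5 of the 11 members and for 46.2% of all 221 probes. Their probes lie side by side in row 10, next to Tnxb, which was at 2.08 to 2.67 times the lowest on arrays 4 to 6.

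The rounding of the deposited values limited few of these readings. Of 66 member values, 16 lay at 2 times the lowest or more. For 13 of them, and for 49 of those below, the side of that line held whatever the lost digits were, and 4 values could fall on either side. These were Tnc (1.92 to 2.45) and Lama5 (1.62 to 2.09) on array 6, and Tnxb (1.96 to 2.22) and Lamc1 (1.88 to 2.13) on array 5.

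Variation between arrays was tested with limma against probes of like signal, on log2 folds over the lowest. Of the 11 members, 9 lay above the lowest on all 6 arrays and entered the test; Fn1 4D and Thbs3 did not. Of 197 probes tested, 0 passed after Benjamini-Hochberg adjustment (0%), and 6 had an unadjusted p under 0.05, none of them a member. This does not show that no probe varied more than the others. The members' SDs ran from 0.18 (Lama2) to 0.76 (Tnc), each below the SD expected at its signal, with limma adjusted p between 0.910 and 0.972. That order depended on the setting. Against 1 expected SD for all probes (0.293), Tnc, Tnxb, Lamc1, Lamb1, Fn1 9D and Lama5 lay above it and Lama2, Thbs1 and Thbs2 below. With arrays 3 to 6 alone Tnc (0.561 against 0.476) and Lamb1 (0.310 against 0.305) lay above the SD expected at their signal, the other tested members below. No member passed in either setting. On log2 intensities as deposited, without division by the lowest, 4 of 197 probes passed (2.03%), with 14 at an unadjusted p under 0.05. Tnc was 1 of these 4 (SD 1.45, limma adjusted p = 0.00758) and no other member passed; the next was Lamb1 (SD 1.27, limma adjusted p = 0.100). The other 3 were Dgat1, Fgfr3 and Top1, which are also the 3 probes most like Tnc in pattern. On arrays 3 to 6 alone 0 of 200 passed, 5 with an unadjusted p under 0.05, and Tnc had a limma adjusted p of 0.924. Over 17 settings the adjusted p of Tnc ran from 0.00758 to 0.994 and was under 0.05 in 1.

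Other genes of the matrix were taken from lists of receptors, proteases and growth factors. Over all 221 probes, 30 were at 2 times the lowest or more on each of arrays 3 to 6. Another 85 were on some of these arrays and 106 on none. Of 7 probes for matrix receptors, 1 was at 2 times the lowest or more throughout arrays 3 to 6, namely Itgb1, which pairs with alpha subunits to bind laminin and fibronectin, at 7.38 ± 2.74 times (SD, n = 4). Another 3 did so on some of these arrays. Cd36, a fatty acid transporter that is also a receptor of thrombospondins, did on arrays 4 to 6, with folds of 3.33, 4.83 and 9.0. The integrin subunits Itga2 and Itgav and the hyaluronan receptor Cd44 did on none. Of 16 probes for matrix proteolysis, 0 did on each of arrays 3 to 6, 4 on some and 12 on none. Timp2 and Timp3 were among the 4, with folds of up to 2.83 and 2.67. Of 7 probes for growth factors that regulate matrix genes, 0 did on each and 3 on some, among them Tgfb1, an inducer of fibronectin and tenascin-C, at 1.44, 2.0, 1.5 and 2.17 times on arrays 3 to 6. Collagens and proteoglycans from a list of 25 other matrix proteins had 0 probes in the table.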

How the data were processed

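Muscle belly cryosections gave the RNA, of which 4 µg were, per the labels' protocols, reverse transcribed at 50 °C with primers specific to the probed genes and a radioactive nucleotide. The authors' deposited table gives 1 intensity per probe and array for 223 probes. Without 1M and 1O each array sums to between 0.995 and 0.999, a scaling read from the values; the sources used here do not give the image analysis or background treatment. Probe names came from the platform annotation, updated through Entrez identifiers to a mouse table of assembly GRCm38.p6, in which 204 of 205 named probes matched and 18 probes had no name. No coordinates or probe sequences are printed, since the sources used here give neither.

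Each intensity was divided by the lowest of its array, and 2 times that lowest was the threshold. Rounding bounds moved value and lowest in opposite directions by the error of rounding to a last decimal of 0.0001. limma 3.58.1 (R 4.3.3) tested variances by an upper-tail F test against a prior from squeezeVar, robust and with a trend on mean log2 fold, and Benjamini-Hochberg adjustment at 0.05. On simulated data the test missed most changed probes where the mean moved with the spread, and found more where each mean was held. A lack of calls therefore does not show even variation. The labels call the samples biological replicates; the table holds 1 array for each. The members, lists and split of arrays 1 and 2 from 3 to 6 were chosen with earlier results of these data known. Named genes were all members, the 3 probes most like Tnc, Tnxb and Lamc1, genes of the matrix lists above the threshold throughout arrays 3 to 6, and others picked after their values were seen. Alternatives changed the floor, threshold, scaling, pseudocount (0.0006), filter, prior and arrays used.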

Additional observations from a re-analysis of the deposited data

How the results depend on the processing

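The count of members above the threshold throughout arrays 3 to 6 was 0, and it was also 0 at 3 times the lowest, at either bound of rounding, over all 6 arrays, and with the 5th percentile or the lowest probe within 2 grid steps as the floor. At 1.5 times the lowest it was 3 (Tnxb, Lamc1 and Fn1 9D). Leaving out 1 array gave 0 to 2, with the 2, Tnxb and Lamc1, reached without array 3. The members' median of 0.72 ran from 0.62 to 0.73 with 1 array left out. It was 0.33 with the local floor, 0.24 after median-centring (0.05 for all probes), which measures from the array's median in place of its floor, and 0.40 without the 3 members nearest to 1M, an alternative added after the data were seen. With the local floor the mean log2 fold went from 1.29 to 0.70 for Tnc, from 0.82 to 0.33 for Lama5 and from 0.82 to 0.24 for Lamb1. The limma variance test called 0 of 197 probes on folds, 4 on intensities as deposited and 1, Il6, after median-centring, and the cause of these differences was not tested. Leaving out 1 array gave 0 to 1 calls, the 1 being Adora3 without array 1. Without the other probes within 5 steps of 1M, also added later, it called 0 of 189. No paired analysis was possible because there is 1 group. Signal over background limits all members: the highest fold on any array was 4.50, and it was that of Tnc, 3.16 grid steps from 1M.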
